A study of Homo sapiens with 34 samples.

Results

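The genes described here are 7 members of the complement system: the proteases C1R and C1S, the central component C3, the membrane regulators CD46, CD55 and CD59, and the secreted inhibitor SERPING1. They were picked by gene name from the 29324 genes with an intron listed in the splicing table, and their values were taken from every library of the series. Falls of C1R after deletion within DDX5, DDX17 and the FNBP4 intron, and of C3 after deletion of the FNBP4 PTC exon, were known from these data when the genes were picked. Those 4 values, and the differences between edits that rest on the same libraries, are given below as descriptions without a test. The other comparisons of C1R and C3 with the controls reuse the control libraries behind that choice. Their p-values are therefore not free of it.

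The libraries came from hTERT RPE-1 cells, a telomerase-immortalised human retinal pigment epithelial line in which hybrid guide RNAs (hgRNAs), each carrying a Cas9 guide and a Cas12a guide, had been delivered by lentivirus. After puromycin at 20 µg/ml for 72 h, cells grew for 4 days before RNA was taken, and ribosomal RNA-depleted, stranded total RNA libraries were made in biological duplicate. There were 17 hgRNA groups of 2 libraries, 34 libraries in all. Control cells received 1 of 2 hgRNAs whose guides both cut intergenic regions. Deletions were made in DDX5, DDX17 and HDAC7 with 2 hgRNAs each, in HNRNPD with 1 hgRNA, and in FNBP4 with 4 hgRNAs, of which hgRNA 1 and 2 removed an intronic region (here the FNBP4 intron deletion) and hgRNA 3 and 4 removed a PTC exon (the FNBP4 PTC exon deletion), an exon that places a premature termination codon in the transcript. The labels say that the DDX17 and HDAC7 deletions also spanned a PTC exon. Knockouts of DDX5, DDX17, FNBP4 and HDAC7 paired an exonic Cas9 guide with an intergenic Cas12a guide. DDX5 and DDX17 encode related RNA helicases, FNBP4 a formin-binding protein, HDAC7 a class IIa histone deacetylase and HNRNPD an RNA-binding protein of AU-rich elements.

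The labels limit how far the edits can be told apart. No clone is named, so each library is taken as a population of edited and unedited cells. Library names of the FNBP4 PTC exon deletion carry a tag, enr, that those of the other groups lack. What the tag marks was not established, and it cannot be told apart from that edit. The labels give the libraries labelled HDAC7 knockout the same Cas9 guide as the libraries labelled FNBP4 knockout, and repeat it as their Cas12a guide. The 2 HDAC7 deletion hgRNAs share a Cas9 guide, as do FNBP4 hgRNA 2 and 3. The guide of both knockouts is shown here, all in lower case, because 2 of the knockout groups below carry it; it was not mapped to the genome.

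FNBP4 and HDAC7 knockout, Cas9 guide: gaagtctgggatgagaacac

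Complement is a cascade of proteases that marks surfaces for removal. In the classical pathway C1r cleaves and activates C1s, both bound to the recognition protein C1q, and C1s then cleaves C4 and C2 to make an enzyme that splits C3, the component on which all routes converge. Host cells restrain it with CD46, a cofactor for the cleavage of C3b and C4b, CD55, which takes apart the C3-splitting enzymes, and CD59, which blocks the final membrane pore, while C1 inhibitor, the product of SERPING1, blocks C1r and C1s. The liver makes most plasma complement, and many epithelial and stromal cells make some of their own.

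The level of a gene is given as CPM, the reads that cross its spliced junctions per 1000000 such reads of the library after TMM scaling. Libraries held 12353936 to 20233610 junction reads, and 12081 genes passed the filter on low counts. Of the 7 genes, 6 passed and SERPING1 did not. The edited genes gave an uneven check of the labels: the DDX5 and DDX17 knockouts lowered their targets by log2 -1.88 (limma adjusted p = 8.3e-07) and -0.44 (adjusted p = 0.0133), whereas FNBP4 and HDAC7 RNA stood at -0.31 (adjusted p = 0.535) and -0.16 (adjusted p = 0.664) in the libraries labelled as their knockouts, and FNBP4 rose by 1.63 (adjusted p = 1.26e-05) after the PTC exon deletion. DDX5 was at -0.44 (adjusted p = 0.0441) in its deletion. No change of the target was called in the deletions of DDX17 (0.04, adjusted p = 0.866), the FNBP4 intron (0.34, 0.481), HDAC7 (-0.27, 0.418) or HNRNPD (0.29, 0.188). Hepatocyte markers summed to at most 0.314 CPM in any library and FGB was at 0. Among immune markers AIF1 and TYROBP were at 0, and the sum of 24.8 to 46.9 CPM was mostly CD68, at a mean of 33.3 CPM. PTPRC (0.548 CPM) and CD79A (0.243) also passed the filter, while CD14, FCER1G and CD3E did not. Of the endothelial markers KDR (3.61 CPM) and PECAM1 (0.237) passed, and CDH5 and VWF did not. Of the 10 pigment epithelium markers 5 passed the filter: the keratins KRT8 and KRT18, MITF at a mean of 16.9 CPM, OTX2 at 3.90 and PMEL at 0.467. TYR was at 0, and RPE65 (0.0898 CPM), RLBP1 (0.0206), BEST1 (0.108) and TYRP1 (0.185) did not pass.

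Levels can be compared between genes only per length, for which the authors' deposited table gives RPKM, 1 value per hgRNA group with the controls pooled. In the authors' deposited table the control RPKM was 826.62 for CD59, 55.56 for CD46, 29.97 for CD55, 7.66 for C1S, 6.69 for C1R, 5.3 for C3 and 0.17 for SERPING1. The membrane regulators thus stood above the secreted components, and SERPING1 was the lowest of the 7. CD59 exceeded 99.7% of the genes listed above 0 in the control, and C3 exceeded 65.3%.

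Changes across the edits were concentrated in C1R, C3 and C1S. The ratio of the highest to the lowest hgRNA group mean in CPM was 11.3 for C1R, 6.92 for C3 and 3.06 for C1S, larger than in 97.6%, 94.8% and 82.0% of all tested genes. It was 1.71 for CD46, 1.6 for CD55 and 1.55 for CD59, larger than in 38.2%, 28.2% and 24.0%. C1R and C3 were chosen partly for their falls, so their places in that order are a description.

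**Figure D1:**
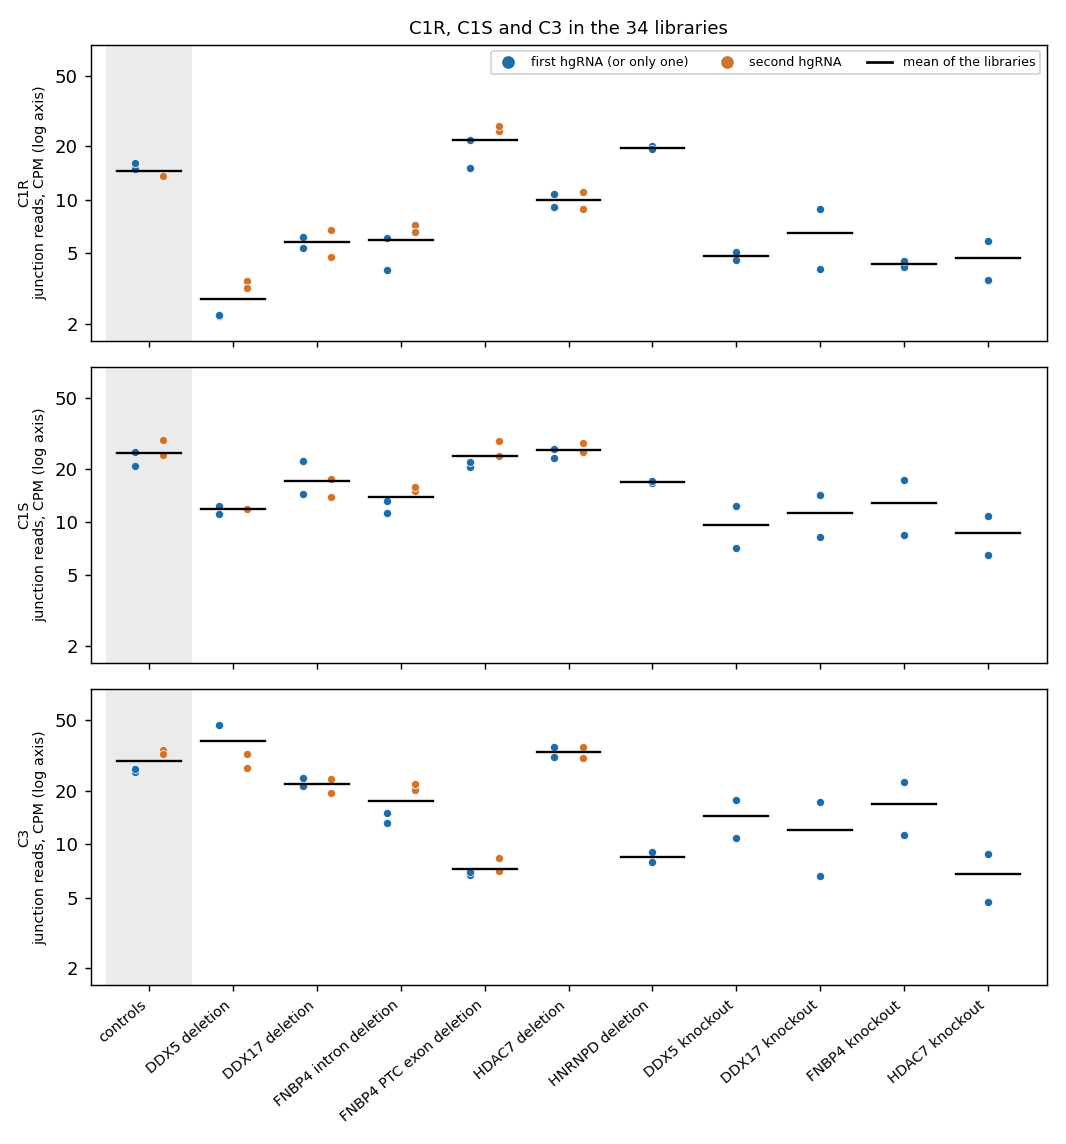
Level of C1R, C1S and C3 (CPM of spliced-junction reads, log axes) in each of the 34 libraries, grouped by edit, with a point per library coloured by hgRNA and a line at the mean of each edit's libraries. C1R was lowest in the DDX5 deletion, at 2.22 to 3.49 CPM, and highest where the PTC exon of FNBP4 was removed, at 15.2 to 26.1 CPM, while C3 was at 6.69 to 8.33 CPM there.

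C1R (chromosome 12, 7080199 to 7092607, minus strand, GRCh38) was read across 10 introns. Its 4 control libraries held 14.9 and 16.1 CPM with hgRNA 1 and 13.6 CPM in both libraries with hgRNA 2, a mean of 14.6 ± 1.23 (SD, n = 4). After deletion in DDX5 it was 2.22 and 2.23 CPM with hgRNA 1 and 3.49 and 3.17 CPM with hgRNA 2, all far below the controls. The mean of 2.78 ± 0.652 CPM was 19.1% of the control mean, a log2 difference of -2.40 (SE 0.22). All 9 C1R introns with at least 10 reads in the controls were lower, and at each of them all 4 deletion libraries lay below every control.

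Deletion in DDX17 left C1R at 5.36, 6.21, 6.75 and 4.77 CPM, 39.6% of the control mean (log2 -1.35, SE 0.19). The FNBP4 intron deletion left it at 4.03, 6.06, 7.21 and 6.6 CPM, 41.0% of the control mean (log2 -1.31, SE 0.18). Neither set overlapped the controls, and they overlapped each other. Deletion in HDAC7 gave 10.8, 9.07, 8.85 and 11.1 CPM, again below every control, but the difference of log2 -0.55 (SE 0.17) did not pass the test (limma adjusted p = 0.0985).

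C1R moved the other way with the FNBP4 PTC exon deletion. Its 4 libraries held 15.2, 21.6, 24.4 and 26.1 CPM, of which 3 lay above every control, and the rise of log2 0.56 (SE 0.15) passed (limma adjusted p = 0.01). The HNRNPD deletion libraries, at 20.0 and 19.4 CPM, also lay above every control, with a difference of 0.44 that did not pass (adjusted p = 0.158).

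In all 4 knockouts C1R fell. It was 4.61 and 5.08 CPM in the DDX5 knockout (log2 -1.58, SE 0.25, limma adjusted p = 0.00027) and 4.20 and 4.52 CPM in the libraries labelled FNBP4 knockout (-1.73, SE 0.26, adjusted p = 0.000142). It was 4.07 and 8.93 CPM in the DDX17 knockout (-1.25, SE 0.23, adjusted p = 0.00558) and 3.52 and 5.84 CPM in the libraries labelled HDAC7 knockout (-1.66, SE 0.26, adjusted p = 0.000488). All 8 libraries lay below the controls, but the last 2 calls rested on replicate 1: without it the DDX17 knockout value was -0.70 (adjusted p = 0.349) and the HDAC7 knockout value -1.31 (adjusted p = 0.0539). RNA was measured on bulk cultures, so fewer cells with a transcript and less of it per cell cannot be told apart for any gene here.

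C1S (chromosome 12, 6988259 to 7071032, plus strand) is the neighbour of C1R, 9.17 kb away and on the opposite strand, and encodes the protease that C1r activates. It fell in the DDX5 deletion and the FNBP4 intron deletion and in all 4 knockouts. Its controls held 20.8, 24.8, 24.0 and 28.9 CPM, and its DDX5 deletion libraries 12.4, 11.1, 11.9 and 11.9 CPM. No library of one set came near the other, and the fall was log2 -1.05 (SE 0.20, limma adjusted p = 0.000733), with 10 of 10 measured introns below every control.

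The FNBP4 intron deletion gave C1S at 13.2, 11.2, 15 and 15.9 CPM, also below every control (log2 -0.83, SE 0.19, limma adjusted p = 0.0146). That call was lost without 1 of 6 libraries (control hgRNA 1 replicate 2, control hgRNA 2 replicate 2, or any 1 of the 4 deletion libraries), at adjusted p of up to 0.0843. In the DDX17 deletion C1S was 14.4, 22, 17.6 and 13.8 CPM, overlapping the controls, at -0.57 (adjusted p = 0.0853). Without DDX17 deletion hgRNA 1 replicate 2 it was -0.71 (adjusted p = 0.0359).

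The HDAC7 deletion libraries held 23 to 28 CPM of C1S and the PTC exon deletion libraries 20.5 to 28.6 CPM, both overlapping the controls (limma adjusted p = 0.839 for the latter, log2 -0.06). HNRNPD deletion gave 16.7 and 17 CPM, below the controls, at -0.53 (limma adjusted p = 0.169). With only the libraries compared in the fit, this C1S difference was -0.54 and passed (limma adjusted p = 0.0369). C1R therefore stood high against C1S in these last 2 edits: C1R reads per C1S read were 0.742 to 1.03 in the PTC exon deletion and 1.14 and 1.2 in the HNRNPD deletion, against 0.470 to 0.719 in controls and 0.180 to 0.294 in the DDX5 deletion.

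C1S in the knockouts was 7.13 and 12.2 CPM for DDX5, 8.27 and 14.3 for DDX17, 8.46 and 17.3 for FNBP4 and 6.49 and 10.8 for HDAC7. Every library lay below every control, and replicate 1 was the lower of each pair. The falls were log2 -1.40 (SE 0.26, limma adjusted p = 0.00138), -1.16 (SE 0.25, adjusted p = 0.0169), -0.99 (SE 0.25, adjusted p = 0.0155) and -1.53 (SE 0.27, adjusted p = 0.00161). None of the 4 passed without its replicate 1, at -0.99 (adjusted p = 0.142), -0.78 (0.468), -0.49 (0.469) and -1.18 (0.114), and the DDX17 knockout value was also lost without replicate 2 of control hgRNA 1 (adjusted p = 0.057) or of control hgRNA 2 (0.0555).

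C3 (chromosome 19, 6677704 to 6730562, minus strand) followed another order of edits. Its controls held 25.5, 26.4, 33.9 and 32.3 CPM (mean 29.5 ± 4.21, SD, n = 4). In the FNBP4 PTC exon deletion it was 6.69 and 6.93 CPM with hgRNA 3 and 7.08 and 8.33 CPM with hgRNA 4, which is 24.6% of the control mean (log2 -2.01, SE 0.23). The 4 values lay close together and far below the controls, and all 20 C3 introns with at least 10 control reads were lower, 18 of them below every control.

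HNRNPD deletion lowered C3 to 9.09 and 7.96 CPM, 28.8% of the control mean (log2 -1.78, SE 0.29, limma adjusted p = 0.000367). All 20 measured introns lay below every control, and this call held in each of the 12 alternatives run. The libraries labelled HDAC7 knockout, at 4.73 and 8.85 CPM, gave a fall of -2.16 (SE 0.31, adjusted p = 0.000264), which also held in all 12. One of these libraries held the least C3 of the series.

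The other knockouts lowered C3 too: to 10.9 and 17.8 CPM for DDX5 (log2 -1.08, SE 0.26, limma adjusted p = 0.0106), to 6.64 and 17.4 CPM for DDX17 (-1.43, SE 0.28, adjusted p = 0.00655) and to 11.3 and 22.5 CPM for FNBP4 (-0.85, SE 0.26, adjusted p = 0.0429). Without replicate 1 these were -0.71 (adjusted p = 0.373), -0.75 (0.409) and -0.38 (0.641), and the FNBP4 knockout value was also lost without any 1 of the 4 control libraries and with no filter (0.0664). For C3 the authors' deposited table lists -0.99 (FDR 0.00831), -1.15 (FDR 0.00478) and -0.73 (FDR 0.0779) in the DDX5, DDX17 and FNBP4 knockouts. With only the libraries compared in the fit, none of the DDX17 knockout calls of C1R, C1S and C3 passed (0.0677 to 0.0886), nor those of C1S (0.0696) and C3 (0.0789) in the FNBP4 knockout. Across all 4 knockouts replicate 1 had less C3, C1R, C1S and CD46 than replicate 2, in 4 of 4 pairs for each gene. Replicate 1 of the knockouts also stood apart in reads that cross an exon-intron boundary, at 1.04%, 1.21%, 0.965% and 1.18% of boundary and junction reads (each junction read counted for its 2 boundaries) for DDX5, DDX17, FNBP4 and HDAC7, against 1.95%, 2.29%, 1.91% and 1.93% in replicate 2 and 1.86% to 3.04% in every other library. Its part in the knockout values of C1R, C1S, C3 and CD46 was not tested.

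The FNBP4 intron deletion gave C3 at 13.1, 15.1, 20.2 and 21.8 CPM, below every control, at log2 -0.77 (SE 0.20, limma adjusted p = 0.0337). That call rested on each library, since leaving out any 1 of the 8 compared ended it (adjusted p of 0.0505 to 0.184), as did leaving out the filter (0.0623). DDX17 deletion libraries lay below the controls as well, at 21.4, 23.5, 23.2 and 19.6 CPM, without passing (-0.43, adjusted p = 0.248). HDAC7 deletion libraries, at 30.9, 35.2, 30.8 and 35.5 CPM, overlapped the controls.

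In the DDX5 deletion C3 was not lower. It stood at 46.8 and 47.2 CPM with hgRNA 1, above every control, and at 26.9 and 32.5 CPM with hgRNA 2, within the controls' range, and the joint difference of log2 0.35 (SE 0.19) did not pass (limma adjusted p = 0.227). With only the libraries compared in the fit, the same difference of 0.35 passed (adjusted p = 0.00818). Of 20 measured introns 18 had a mean above that of the controls, none with all 4 libraries above. The authors' deposited table likewise lists 0.72 (FDR 0.0441) for hgRNA 1 and 0.07 (FDR 1) for hgRNA 2. The difference between the 2 hgRNAs in the limma fit was 0.67 (SE 0.26, unadjusted p = 0.0191, adjusted p = 1).

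C1R and C3 thus stood in different proportion from edit to edit. In control libraries there were 0.4 to 0.610 C1R reads per C3 read. The ratio was 0.0473 to 0.130 in the DDX5 deletion, 2.27 to 3.45 in the PTC exon deletion and 2.20 and 2.44 in the HNRNPD deletion. These 3 sets lay wholly outside the control range and on both sides of it. The ratio was 0.244 to 0.291 in the DDX17 deletion and 0.258 to 0.348 in the HDAC7 deletion, below the controls, and 0.302 to 0.402 in the FNBP4 intron deletion. Of the knockouts only the HDAC7 pair, at 0.743 and 0.660, lay wholly above the controls and only the FNBP4 pair, at 0.370 and 0.201, wholly below. Because the falls of C1R and C3 were known beforehand, these ratios carry no test.

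**Figure D2:**
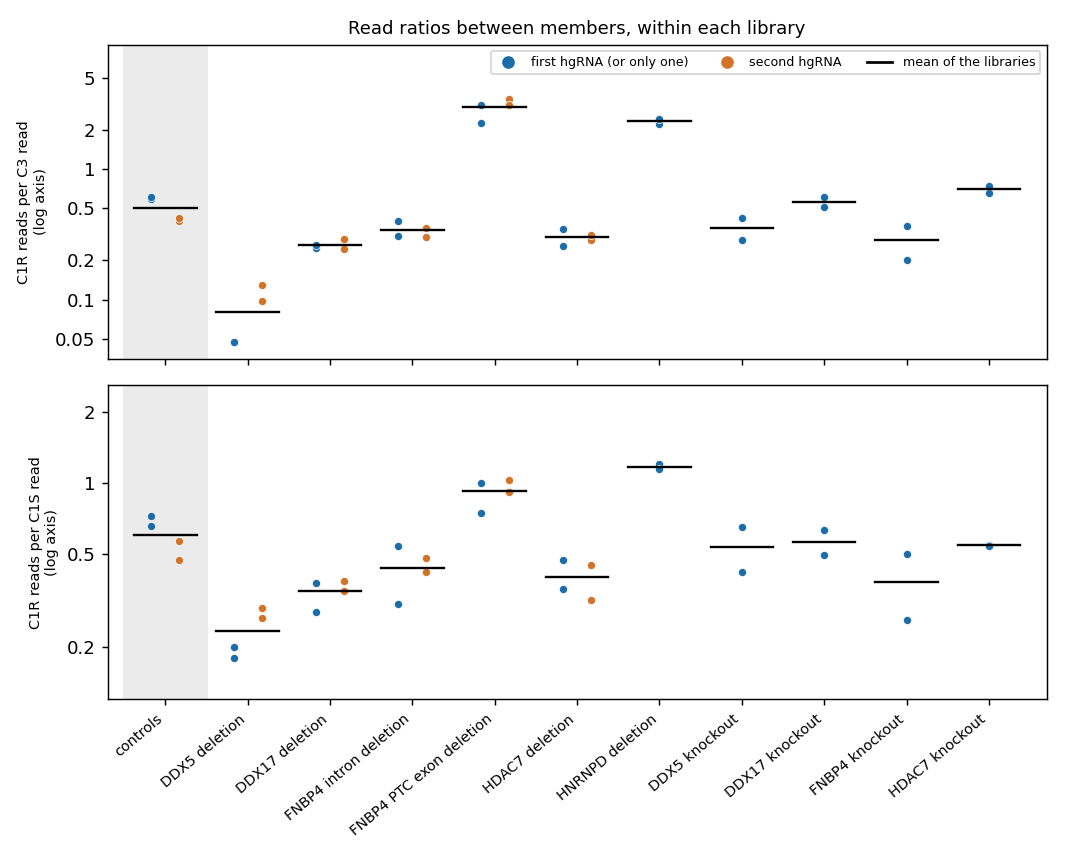
Junction reads of C1R per junction read of C3 (upper panel) and of C1S (lower panel) on log axes, with a point per library, grouped by edit, and a line at the mean of each edit's libraries. C1R per C3 read ran from 0.0473 in the DDX5 deletion to 3.45 in the FNBP4 PTC exon deletion, with controls at 0.4 to 0.610.

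Across the 17 hgRNA groups the mean log2 levels of C1R and C1S had a Pearson correlation of 0.77, those of C1S and C3 of 0.24, and those of C1R and C3 of -0.36. These are descriptions over groups that share 1 scaling. In order of C1R level the PTC exon hgRNA 4 group came first (25.2 CPM), followed by HNRNPD (19.7 CPM), PTC exon hgRNA 3 and the controls, whose neighbouring ranges partly overlapped. From the FNBP4 intron deletion hgRNA 2 down to the libraries labelled FNBP4 knockout, 8 neighbouring groups between 6.91 and 4.36 CPM overlapped in turn, and both DDX5 deletion groups lay below them without overlap. In order of C3 level the DDX5 deletion hgRNA 1 group came first, apart from the next, and the lowest 4 groups were HNRNPD, both PTC exon groups and HDAC7 knockout.

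Both edits of FNBP4 can be compared directly, without the controls. C1S was higher after the PTC exon deletion than after the intron deletion by log2 0.77 (SE 0.19, limma adjusted p = 0.00375) and CD55 by 0.35 (SE 0.09, adjusted p = 0.0069), the latter not passing with each library's trend on GC content and length removed (0.29, adjusted p = 0.0787). The differences of C1R, 1.88 (SE 0.18), and of C3, -1.24 (SE 0.24), are descriptions. Over the whole fit 3 of the 6 tested members were called higher, where 16.4% of all genes were, and 1 lower, where 14.3% were, counting the genes known beforehand.

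The DDX5 deletion and the DDX5 knockout differed in C3, which was higher in the deletion by log2 1.43 (SE 0.26, limma adjusted p = 0.00181). It was the only 1 of the 6 members called there, where 1.75% of genes were called higher and none of the members lower. Without DDX5 knockout replicate 1 the difference was 1.05 (adjusted p = 0.185). The fall of C1R was larger in the deletion by -0.82 (SE 0.29), a description, and C1S differed by 0.35 (adjusted p = 0.489). The DDX5 gene itself was at -0.44 (adjusted p = 0.0441) in the deletion and -1.88 in the knockout, each against the controls.

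Counted by comparison with the controls, which all share the same 4 control libraries, members were called lower in 2 of 6 for the DDX5 deletion (9.68% of all genes were), 1 of 6 for the DDX17 deletion (2.72%) and 3 of 6 for the FNBP4 intron deletion (2.25%). Nothing is read from those 3 counts or from the PTC exon deletion, with 2 of 6 higher (13.9%) and 1 of 6 lower (13%), because each includes a gene known beforehand. HNRNPD deletion had 1 of 6 lower (4.32%), a single call that is not read as a result about the members. The knockouts had 3 of 6 lower for DDX5 (4.11%), 3 for DDX17 (1%), 3 for FNBP4 (3.67%) and 4 for HDAC7 (3.07%). The knockout counts are not read either, since each includes C1R and C3, genes picked with falls against the same 4 control libraries in view. In the HDAC7 deletion limma called none of 6, where 1.9% of genes were called in either direction, and 1 member had an unadjusted p under 0.05. The median log2 difference over the 6 members was lowest in the libraries labelled HDAC7 knockout, at -1.03 beside -0.021 over all genes, and was 0.01 beside -0.003 in the DDX5 deletion.

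**Figure D3:**
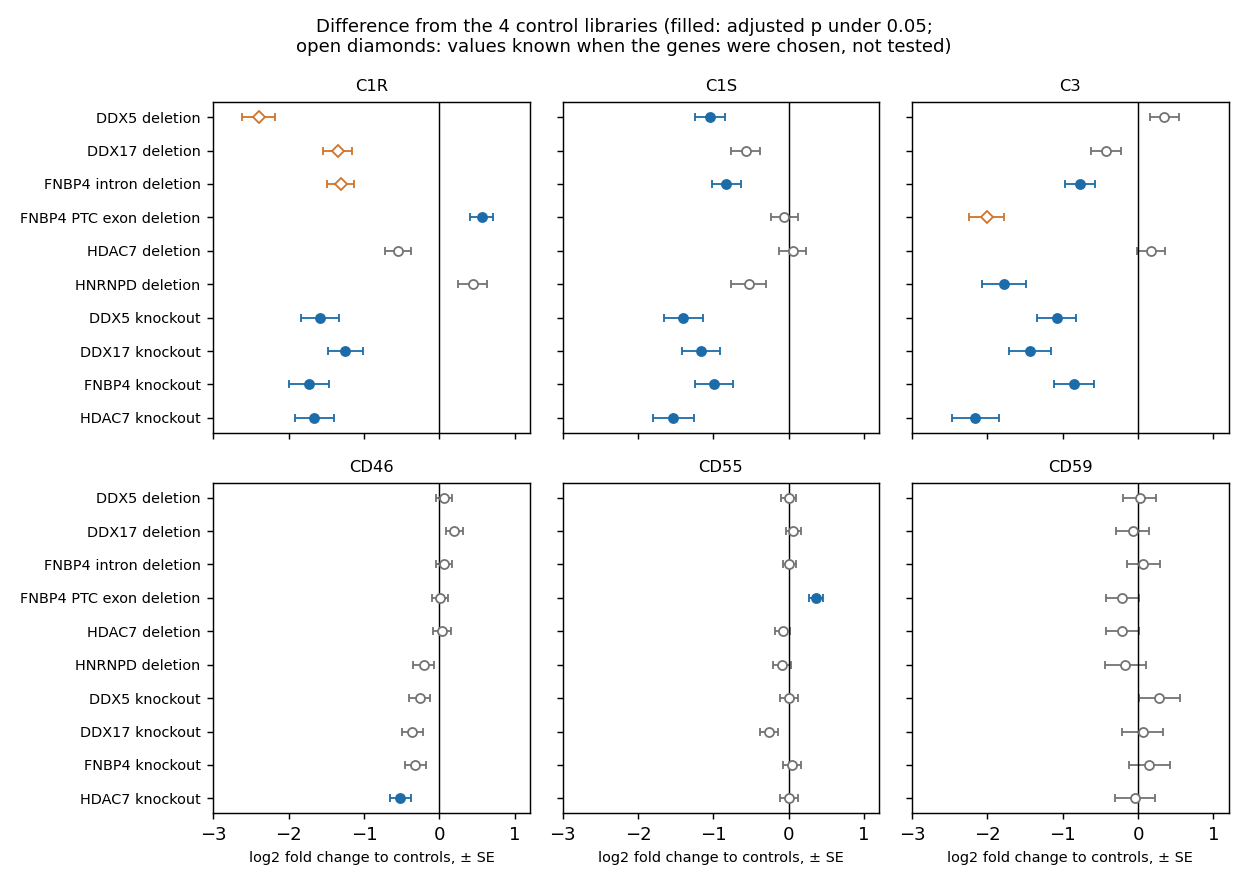
log2 difference from the controls of the 6 tested genes in each edit, with bars for the limma standard error. Filled points mark calls at adjusted p under 0.05, and the open diamonds mark the 4 values known when the genes were chosen, which carry no test; C1R and C3 spread from -2.40 to 0.56 and from -2.16 to 0.35, while CD59 stays between -0.21 and 0.28.

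None of the 36 differences between the hgRNAs of a target, over 6 genes and 6 targets, was called by limma (0% of all genes were), and 2 had an unadjusted p under 0.05. They were C3 in the DDX5 deletion and C1R in the PTC exon deletion, where hgRNA 3 was lower than hgRNA 4 by log2 -0.46. Each hgRNA had 2 libraries, and p-values measure the spread between such duplicates.

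The membrane regulators changed little. CD46 (chromosome 1, 207752057 to 207795513, plus strand) held 107.6, 92.0, 109.2 and 116.7 CPM in controls, and every deletion overlapped that range. It was called lower in the libraries labelled HDAC7 knockout, at 63.9 and 85.1 CPM (log2 -0.52, SE 0.14, limma adjusted p = 0.0329). That call was lost without replicate 1 of that knockout (-0.32, adjusted p = 0.484), or 1 of 3 controls: hgRNA 1 replicate 1 (0.0765), hgRNA 2 replicate 1 (0.0693) or its replicate 2 (0.0689). It was also lost with no filter (0.0535) and with only the libraries compared (0.095). For this knockout the authors' deposited table lists CD46 at log2 -0.39 (FDR 0.203). The other knockouts had CD46 at -0.26 (DDX5), -0.36 (DDX17) and -0.32 (FNBP4), which did not pass, and differences between knockouts were not tested. Leaving out single libraries moved the FNBP4 knockout value between -0.60 and -0.06.

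CD55 (chromosome 1, 207321376 to 207386804, plus strand) held 55.2, 54.3, 59 and 55.4 CPM in controls. It was higher after the FNBP4 PTC exon deletion, at 83.4, 66.2, 71.5 and 66.8 CPM, each above every control (log2 0.36, SE 0.09, limma adjusted p = 0.00814). Without PTC exon hgRNA 3 replicate 1 the rise was 0.27 (adjusted p = 0.0546), and with each library's trend on GC content and length removed it was 0.23 (adjusted p = 0.183). With only the libraries compared it was 0.34 (adjusted p = 0.0535). For CD55 the authors' deposited table lists 0.37 (FDR 0.0181) with hgRNA 3 and 0.28 (FDR 0.133) with hgRNA 4. The DDX17 knockout libraries, at 48.5 and 45.2 CPM, lay below every control without passing. Elsewhere CD55 overlapped the controls.

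CD59 (chromosome 11, 33703010 to 33736491, minus strand), the inhibitor of the membrane pore, was called in no comparison with the controls. Its differences ran from log2 -0.21 to 0.28 and the smallest limma adjusted p was 0.498. The authors' deposited table, in contrast, lists CD59 higher in the DDX5 knockout by log2 0.65 (FDR 0.000415), at an RPKM of 1263.71 beside 826.62 in the control. Controls held 397, 301, 397 and 398 CPM. The spread within groups was wide: DDX17 deletion hgRNA 1 gave 444 and 205 CPM, HDAC7 deletion hgRNA 1 gave 439 and 219 CPM, and PTC exon hgRNA 3 gave 227 and 362 CPM. In the knockouts replicate 1 was the higher for CD59 in 4 of 4 pairs, for example 537 and 377 CPM for DDX5, the reverse of C3, C1R, C1S and CD46.

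**Figure D4:**
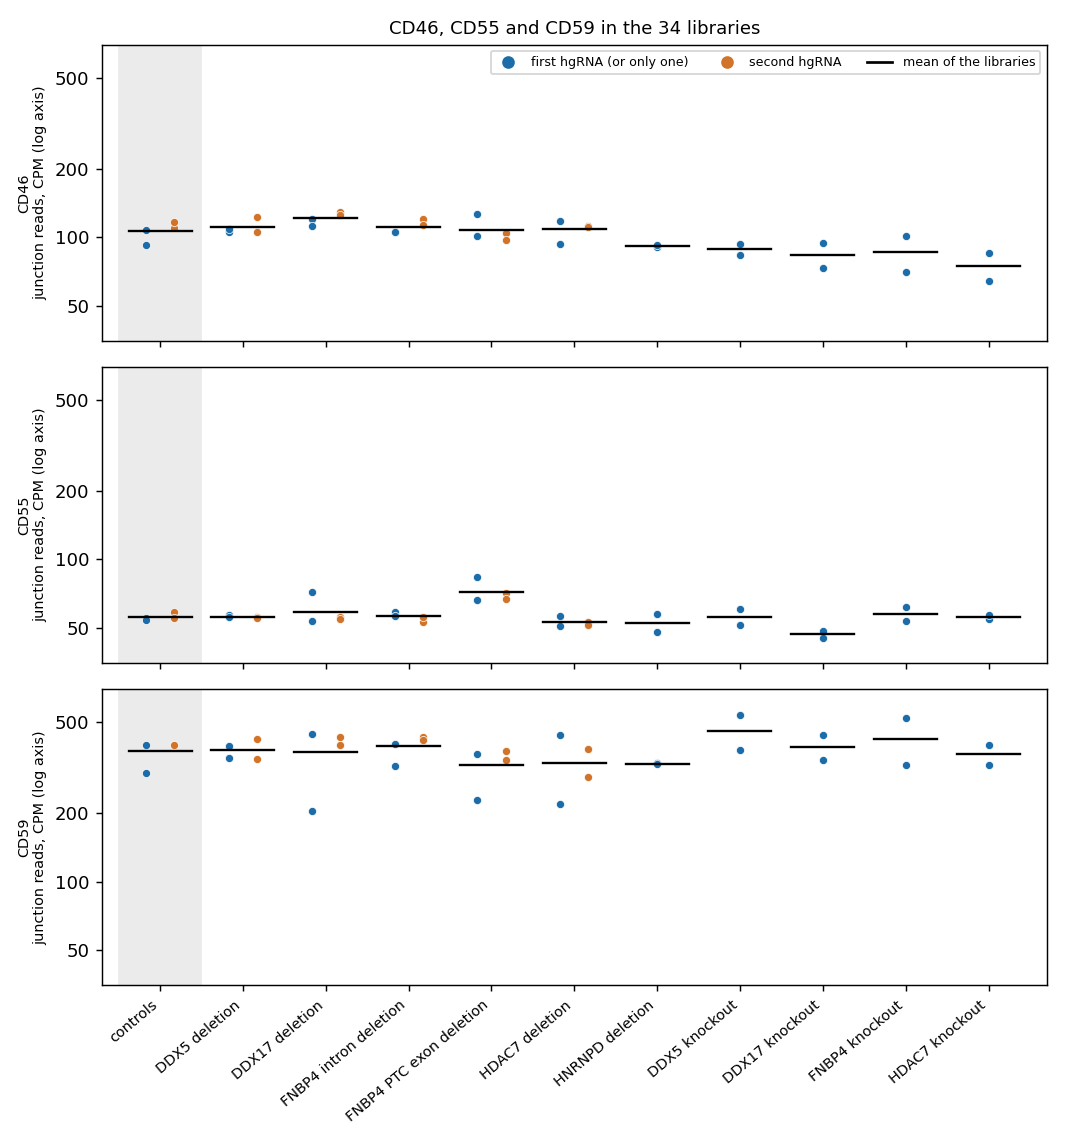
Level of CD46, CD55 and CD59 (CPM of spliced-junction reads, log axes) with a point per library, grouped by edit, and a line at the mean of each edit's libraries. The calls against the controls were CD55 after removal of the PTC exon of FNBP4, at 66.2 to 83.4 CPM, and CD46 in the libraries labelled HDAC7 knockout, at 63.9 and 85.1 CPM.

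SERPING1 (chromosome 11, 57597387 to 57614853, plus strand), whose product inhibits C1r and C1s, was at the edge of detection. It had 85 junction reads over all 34 libraries, 0 to 9 in each, and none in 9 libraries, where a floor of 3 reads stands for 0.153 to 0.206 CPM. In the authors' deposited table its RPKM ran from 0.05 to 0.34 over the groups, beside 0.17 in the control. A change in SERPING1 was not detectable at this depth.

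Splicing within the members was measured apart from their level. Of their events, 91 had at least 20 reads in every library: 47 in CD46, 29 in CD55, 10 in CD59 and 5 in C1S. No event of C3, C1R or SERPING1 did. In the 10 comparisons with controls limma called none of the 91 at adjusted p under 0.05 with a shift of 10 percentage points. Of the values, 91 in each of the 10 comparisons, 92 had an unadjusted p under 0.05. An adjusted p under 0.05 was found for 3, all in C1S and of at most 0.7 points. Shares over all events were not counted without the limit on shift, so neither number is read as a result. Calls were rare over all 213815 events: 0.0276% in the DDX5 deletion, 0.0154% in the PTC exon deletion, 0.0112%, 0.0108%, 0.00702% and 0.00514% in the DDX17, FNBP4, HDAC7 and DDX5 knockouts, 0.0014% in the HNRNPD deletion, 0.000468% in the DDX17 deletion and 0% in the FNBP4 intron and HDAC7 deletions.

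The events with wide ranges included 2 cassette exons of CD46 that decide which form of the protein is made. The first codes part of the stretch rich in serine, threonine and proline that carries sugars near the membrane, and 6 of 11 coding transcripts include it. The second ends the CYT-1 cytoplasmic tail, 1 of the 2 tails CD46 can have, and 3 of 11 coding transcripts include it. Both are shown because their inclusion had the widest range among the CD46 events, from GENCODE v29 transcripts on the plus strand of GRCh38, the second only up to its stop codon, in capitals.

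CD46 45-base exon, chr1:207767779-207767823: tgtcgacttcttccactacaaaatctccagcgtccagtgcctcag

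CD46 93-base exon, first 52 bases, chr1:207790253-207790304: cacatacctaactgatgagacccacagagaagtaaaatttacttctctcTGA

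The 45-base exon was included at 77.8% ± 1.87 (SD, n = 4) in controls and at 65.7% ± 3.54 (SD, n = 4) in the FNBP4 PTC exon deletion, a difference of -12.2 points that did not pass (limma adjusted p = 0.136). It was at 65.6% in the DDX5 knockout (adjusted p = 0.368) and at 69.0% ± 9.42 (SD, n = 4) in the DDX17 deletion. There hgRNA 1 replicate 2 stood at 54.9%, and without replicate 1 of that hgRNA the DDX17 deletion differed by -13.5 points (adjusted p = 0.0464). The tail exon was at 23.8% ± 1.39 (SD, n = 4) in controls and at 36.3%, 37.6%, 35.7% and 29.8% in the DDX5 deletion, each above the control mean, a difference of 11 points (adjusted p = 0.129). It was at 30.9% in the DDX5 knockout (adjusted p = 0.61).

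**Figure D5:**
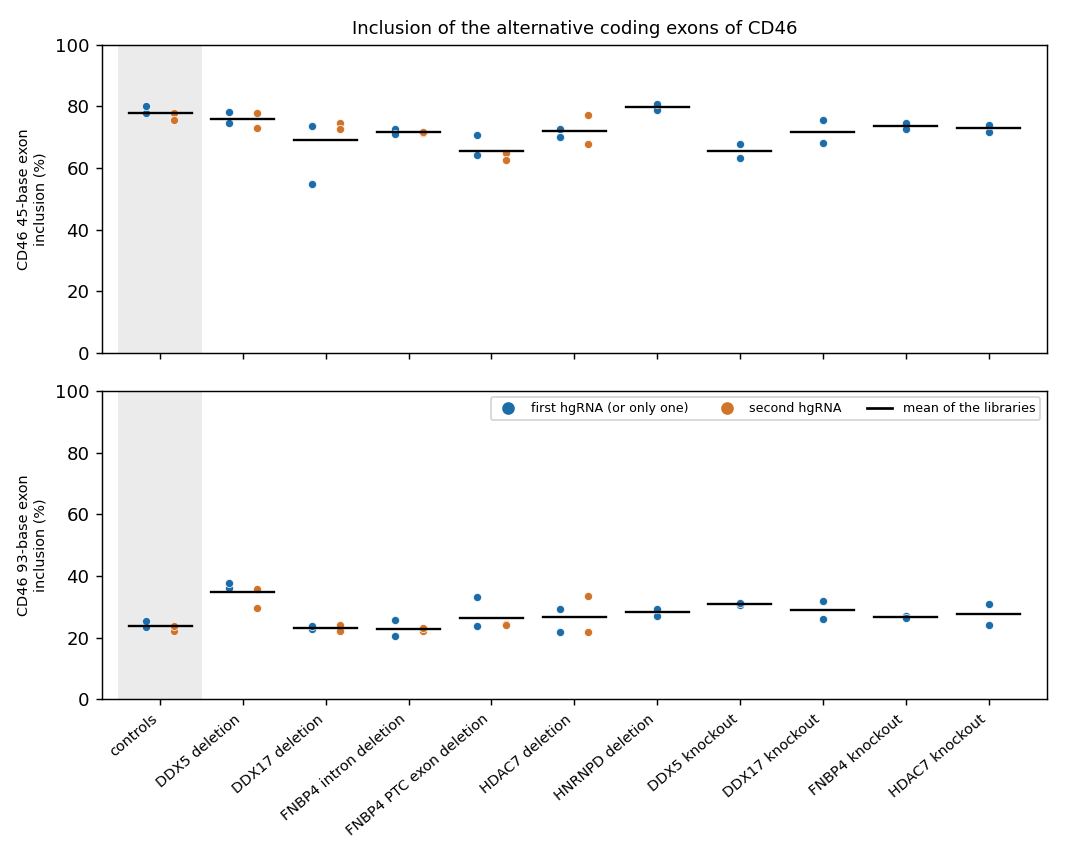
Inclusion (percent of transcripts) of the 45-base and the 93-base CD46 exons, with a point per library, grouped by edit, and a line at the mean of each edit's libraries. The 45-base exon lay at 77.8% on average in controls and 65.7% in the FNBP4 PTC exon deletion, and the 93-base exon at 23.8% in controls and 34.8% in the DDX5 deletion; neither difference passed the test.

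The widest event range of all was that of a 45-base exon in the 5′ untranslated part of CD59 (chromosome 11, 33731424 to 33731468), whose hgRNA group means spread over 17.5 points. It was included at 30.4% ± 2.99 (SD, n = 4) in controls, at 39.7% in the DDX5 knockout (limma adjusted p = 0.62) and at 23.2% ± 5.62 (SD, n = 4) in the HDAC7 deletion (adjusted p = 0.819). The group means of the other member events spread over at most 7.4 points, the widest in a CD55 intron retained at 2.04% ± 1.19 (SD, n = 4) in controls.

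Around the members, a list of 47 other complement genes was counted. Of these, 45 had an intron in the splicing table and 12 passed the filter on low counts. All 3 C1q chain genes, C1QA, C1QB and C1QC, were without a read. Called lower of the 12 in the deletions were 4 with DDX5 (C1RL, C2, CFB and CFI, where 9.68% of all genes were), 1 with DDX17 (C1RL, 2.72%) and 1 with the FNBP4 intron (C1RL, 2.25%). With HDAC7 C5 was called (lower, where 1.9% of genes were called in either direction). In the PTC exon deletion CFI and C5 rose, where 13.9% of all genes did, and C2 fell, where 13% did. In the HNRNPD deletion C1RL rose (4.55% of all genes) and C9 fell (4.32%). In the knockouts 2 fell with DDX5 (C1RL and C5, 4.11%), 1 with DDX17 (C1RL, 1%), 3 with FNBP4 (C1RL, CFI and CLU, 3.67%) and 3 with HDAC7 (C1RL, CFI and CLU, 3.07%), and C1QBP rose with FNBP4 (4.54%). With 12 genes tested a single call is 1 of 12, so the counts of 1 and those of the PTC exon deletion are not read as a result about the list. C2 and CFI lay near or below a floor of 3 reads in the DDX5 deletion, as did CFI in the FNBP4 and HDAC7 knockouts. The counts of 4 and 3 that include them are not read either.

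C1RL, a protease gene akin to C1R and next to it (chromosome 12, 7089587 to 7109273, minus strand), was the most often called of the list. Its span overlaps that of C1R by 3.02 kb, but none of its 5 introns counted here lies within C1R, so no junction read was shared. From 9.65 ± 0.943 CPM (SD, n = 4) in controls it fell to 3.78 ± 0.572 CPM (SD, n = 4) in the DDX5 deletion (log2 -1.35, SE 0.16, limma adjusted p = 2.26e-06). It also fell in the DDX17 deletion (-1.01, adjusted p = 0.0002), the FNBP4 intron deletion (-0.87, adjusted p = 0.000846) and the 4 knockouts (-0.97 to -1.41). In the HNRNPD deletion it rose to 15.8 CPM (0.72, SE 0.15, adjusted p = 0.00367).

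CFI, the protease that cuts C3b with CD46 as a cofactor, was at 0.499 ± 0.171 CPM in controls and 1.34 ± 0.462 CPM in the FNBP4 PTC exon deletion (log2 1.35, limma adjusted p = 0.0112), and at 0.160 ± 0.122 CPM (each SD, n = 4) in the DDX5 deletion (-1.66, adjusted p = 0.0375). CFI was at 0 in 1 of 2 libraries of both the FNBP4 and the HDAC7 knockout.

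C2, the protease that C1s cleaves, was at 0.307 ± 0.0484 CPM in controls, 0.0880 ± 0.103 CPM in the DDX5 deletion (limma adjusted p = 0.0332) and 0.108 ± 0.156 CPM (each SD, n = 4) in the PTC exon deletion (adjusted p = 0.0193). Both deletion means lay below the 0.153 to 0.206 CPM given above for 3 reads, and the lowest library of each set was at 0. CFB, its counterpart in the alternative pathway, fell by 1.11 on the log2 scale in the DDX5 deletion (adjusted p = 0.0381). C5, from which the pore is started, rose by 0.29 in the PTC exon deletion (adjusted p = 0.0483) and fell by 0.45 in the HDAC7 deletion (adjusted p = 0.0474) and by 0.73 in the DDX5 knockout (adjusted p = 0.00257). CLU, a regulator of the pore, fell by 0.97 in the FNBP4 knockout (adjusted p = 0.0102). It fell by 1.08 in the HDAC7 knockout (adjusted p = 0.00795). The libraries of each pair lay far apart, at 16.9 ± 8.27 and 15.2 ± 5.00 CPM (each SD, n = 2). Controls held 31.4 ± 0.888 CPM of CLU (SD, n = 4). Alternatives were read for the members only. Whether the calls of CLU, C5, C1RL, C1QBP and the other list genes rest on 1 library was therefore not tested. C9, the pore's main subunit, was at 0 in both HNRNPD libraries, at least 2.06-fold lower than its control mean of 0.373 CPM when set at a floor of 3 reads per library.

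The genes whose mean log2 level followed each member most closely over the 17 groups were ranked among 9284 genes. For C1R they were HMCN1 (Pearson r = 0.970), UBA7 (0.955), JUP (0.953), SSC5D (0.951) and MMP2 (0.949). For C1S they were TUSC3 (0.912), TRO (0.893), IRF1 (0.891), ZNF266 (0.888) and FAP (0.883). For C3 they were TRAF3 (0.898), CLSTN2 (0.889), SLC1A1 (0.878), NAPA (0.863) and LACC1 (0.861). No gene stood in more than 1 of these lists of 5.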

How the data were processed

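The submitters' processing notes name Salmon 1.10 and edgeR; no aligner is named in the labels or headers. The authors deposited a vast-tools splicing table with inclusion in percent and read counts per event, and per the file headers an expression table with RPKM, log2 fold change and FDR (an adjusted p-value) for each hgRNA group. Whole spliced-junction reads of each intron event were read from the deposited quality text and summed per gene, which gives gene counts without unspliced reads. Genes with at least 15 reads in all, and 10 (scaled to median depth) in at least 2 libraries, were kept. The 34 libraries were fitted in R 4.3.3 with limma 3.58.1 (voom weights, TMM scaling, one coefficient for each hgRNA group, degrees of freedom 17 residual plus 5.83 prior), with p-values adjusted by Benjamini-Hochberg over 12081 genes and calls at 0.05. Events were fitted as log2 of inclusion over exclusion reads with a pseudocount of 1. Levels came from 12353936 to 20233610 junction reads per library; floors of 3 reads cover counting error only. The table held 2 further libraries that match no sample and were not used. Positions and exons are from GENCODE v29 (GRCh38).

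The members and lists were chosen with earlier results of these data known. Named are the 7 members, list genes past the threshold, the 5 genes nearest in pattern to C3, C1R and C1S, and the member events of widest range, others as a limit. One gene of the list is not reported here. SERPING1 was not tested, so no genes are ranked for it. Alternatives were median-of-ratios scaling, no filter, a replicate block, removal of a trend on GC content and length, only the libraries compared, and each library left out; leaving out 3 libraries together was chosen after seeing the data. Scripts were tested on simulated data.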

Additional observations from a re-analysis of the deposited data

Results flagged for a closer look

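In 36 sets of 4 libraries (6 genes in the controls and 5 deletions), 2 held a library far from its neighbours past the critical value of Dixon's ratio; chance gives about 1 in 20. CD55 was at 72.0 CPM in DDX17 deletion hgRNA 1 replicate 2, above the other 3 libraries (53.5 to 55.7 CPM), with a gap of 0.879 of the range. CD59 was at 301 CPM in control hgRNA 1 replicate 2, below the other 3 controls (397 to 398 CPM), with a gap of 0.987 of the range. The same DDX17 deletion library also held the lowest CD59 of the series, 205 CPM.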

How the results depend on the processing

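Over 72 comparisons of a member, alternatives gave 924 values: 868 stayed on their side of the threshold, 49 no longer passed, 7 newly passed and 0 passed in the opposite direction. Among the 868, differences that were not called could change sign, such as CD59 in the DDX17 deletion (-0.07, and up to 0.21). In 13 of the 72 the call held in every alternative. These include the values known beforehand, C1R in the DDX5, DDX17 and FNBP4 intron deletions and C3 in the PTC exon deletion. They also include C1R and C3 between the FNBP4 edits, which rest on the same libraries and are descriptions. Left-out libraries moved the number of members called between 1 and 2 in the DDX17 deletion (main count 1), 1 and 2 in the FNBP4 intron deletion (main count 3), 1 and 3 in the DDX5 knockout (3), 0 and 3 in the DDX17 knockout (3), 1 and 4 in the FNBP4 knockout (3), 1 and 4 in the HDAC7 knockout (4), and 0 and 1 in the DDX5 deletion against knockout (1). For member splicing events it was 0 to 1. With only the libraries compared the number was 3 for the DDX5 deletion (main 2) and 2 for HNRNPD (main 1). It was 0 for the DDX17 knockout, 1 for the FNBP4 knockout and 3 for DDX5 deletion against knockout. With the GC and length trend removed it was 1 for the HDAC7 deletion (C1R, -0.58, adjusted p = 0.0437). The cause was not tested, beyond the fewer samples of the left-out fits. Samples with the same replicate number did not deviate together overall (28 of 136 pairs of groups above 0.1, median -0.00638), although the 6 pairs among knockouts correlated at 0.369 to 0.497. The replicate block changed no member's call; the C1S fall in the DDX5 deletion had adjusted p = 0.000246 with it. The number of all genes called was 2042, 602, 426, 3252, 230 and 1072 in the DDX5, DDX17, FNBP4 intron, PTC exon, HDAC7 and HNRNPD deletions and 1207, 991 and 785 in the DDX5, FNBP4 and HDAC7 knockouts, 92 higher and 121 lower in the DDX17 knockout, and 532 in DDX5 deletion against knockout. With only the libraries compared it was 3755, 31, 1077 and 1 (DDX5, DDX17, FNBP4 intron, HDAC7 deletions), 652, 17, 313 and 150 (DDX5, DDX17, FNBP4, HDAC7 knockouts) and 1908. With the trend removed it was 1041, 708 and 473 (DDX17, FNBP4 intron, HDAC7 deletions), 536 and 1275 (DDX17, HDAC7 knockouts) and 1026. Dropping the 3 libraries together, chosen after seeing the data, gave 366, 151 and 1753 (DDX17, HDAC7, HNRNPD deletions) and ended 2 of the 60 member results, C3 in the FNBP4 intron deletion (-0.76, adjusted p = 0.0746) and C3 in the FNBP4 knockout (-0.85, adjusted p = 0.0576). Left-out libraries gave 1052 to 2222, 214 to 1273 (fewer still without DDX17 deletion hgRNA 2 replicate 2), 124 to 584, 1830 to 4298, 64 to 615 and 324 to 941 in the DDX5, DDX17, FNBP4 intron, PTC exon, HDAC7 and HNRNPD deletions, 155 to 1043, 26 to 140, 210 to 947 and 61 to 737 in the DDX5, DDX17, FNBP4 and HDAC7 knockouts, and 95 to 409 in DDX5 deletion against knockout. Without a filter 3, 1 and 1 genes differed between the hgRNAs of the DDX5, DDX17 and PTC exon deletions. Depth limits what can be said of SERPING1, C2, CFI and C9.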
